A study of Mus musculus with 8 samples.

Results

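The miRNAs mmu-miR-7a, mmu-miR-137 and mmu-miR-153 (miR-7a, miR-137 and miR-153 below) were examined in basal progenitors sorted from the mouse cortex at E13 and at E16, that is, embryonic days 13 and 16. They are 3 of the 611 mouse miRNAs on the array and were selected on their array signals, as neuron-associated miRNAs that were lower at E16. The difference between the stages therefore chose them, and it is given here as a description, without a test. Basal progenitors are cells of the developing cortex that divide away from the ventricle and mostly give rise to neurons. They were collected by fluorescence-activated cell sorting, and the sources used here do not give the gate. Each stage had 4 samples, marked WT in the labels, with no treatment named, and each was read on a separate Agilent miRNA array with a single dye. The design text names 3 litters per stage, so some samples of a stage may share a litter, and the spread between samples may be partly that of shared litters.

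A miRNA is a short RNA that is cut from one arm of a hairpin transcript and guides a silencing complex to messenger RNAs, mainly through its seed, bases 2 to 8. miR-7a is conserved across animals, is abundant in neurosecretory and endocrine cells, represses Pax6, a transcription factor of cortical progenitors, and binds the circular RNA Cdr1as. miR-137 acts in neural progenitors and in neurons and represses the chromatin regulators Ezh2 and Kdm1a. miR-153 is a brain-enriched miRNA that, like miR-7a, represses alpha-synuclein, a presynaptic protein.

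The mature sequences are shown first, since they set which miRNAs share a seed and what each probe can bind. They are from RefSeq (GRCm38.p6), run 5′ to 3′ and have the seed in capitals. The 3 members and the relatives named here all matched an entry, under names that carry an arm (miR-7a-5p, miR-137-3p, miR-153-3p).
miR-7a: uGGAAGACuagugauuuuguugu
miR-7b: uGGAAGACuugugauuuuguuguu
miR-137: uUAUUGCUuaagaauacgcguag
miR-153: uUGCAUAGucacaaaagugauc
No seed was shared between the 3 members. The seed of miR-7a was shared with miR-7b alone in the RefSeq table, and those of miR-137 and miR-153 with no other mature miRNA there. miR-7b differs from miR-7a by A10U, counted from the 5′ end of miR-7a, and by 1 added base at its 3′ end.

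miR-7a is made from more than one hairpin gene, which matters for reading its other arm. In the mm9 build named in the file headers, the scanner files place its longer probe at chr13:58494164-58494185 on the minus strand, the chromosome of Mir7-1, and at chr7:86033182-86033203 on the plus strand, that of Mir7-2. The hairpins of both genes are shown with their mature arms in capitals, miR-7a first.
Mir7-1: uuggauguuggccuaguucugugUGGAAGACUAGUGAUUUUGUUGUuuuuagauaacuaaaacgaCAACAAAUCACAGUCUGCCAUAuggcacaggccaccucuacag
Mir7-2: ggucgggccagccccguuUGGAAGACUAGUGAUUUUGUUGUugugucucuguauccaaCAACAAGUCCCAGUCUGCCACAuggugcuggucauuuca
The miR-7a arm is the same in both hairpins. The opposite arms differ by A7G, A10C and U21C, counted from the 5′ end of the Mir7-1 arm. The array's miR-7a* probes match the Mir7-1 arm, and the longer of them has 3 mismatches to that of Mir7-2. In the RefSeq annotation of GRCm38, Mir7-1 overlaps the protein-coding gene Hnrnpk, Mir153 overlaps Ptprn2 and the long non-coding RNA gene Gm5441, and Mir137 and Mir7-2 overlap no other gene. The files place the longer probe of miR-137 at chr3:118136823-118136841 and that of miR-153 at chr12:118489336-118489354, both on the plus strand (mm9) and both spans 1 base shorter than the probe.

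Each member was read by 2 probes of 10 spots each per array, and the probes of a pair differ by 1 base at the 3′ end. The probe sequences are shown because that base went with large gaps in brightness for miR-7a and miR-153. They are DNA from the scanner files, in lower case with the added base of the longer probe in capitals.
miR-7a, 21 bases: acaacaaaatcactagtcttc
miR-7a, 22 bases: acaacaaaatcactagtcttcC
miR-137, 19 bases: ctacgcgtattcttaagca
miR-137, 20 bases: ctacgcgtattcttaagcaA
miR-153, 19 bases: gatcacttttgtgactatg
miR-153, 20 bases: gatcacttttgtgactatgC
The added base pairs with base 2 of miR-7a, base 4 of miR-137 and base 3 of miR-153, all within the seed. The longer probe was the brighter one for each member and stands for it below.

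The arrays differed in overall brightness. The 75th percentile of the processed signal, taken over the 126 mouse probes that passed the background test on each of the 8 arrays, ran from 162 to 490 at E13 and from 109 to 748 at E16. E16 replicate 4 was the dimmest array, with 76 miRNAs well above background where the others had 119 to 206. Signals were therefore divided by this percentile, and a scaled log2 value of 0 is a signal equal to it. A floor of -5.96 was set under scaled values, which stood for unscaled signals of 1.74 to 11.996 depending on the array, and values at the floor have no order. The neural markers miR-9, miR-9* and miR-124 were well above background on all 8 arrays. Marker miRNAs of blood (6), endothelium (2), muscle (5), liver (1), epithelium (9) and of hindbrain and spinal cord (7) were above background on none. The 2 markers of the oligodendrocyte lineage, miR-219 and miR-338-3p, were detected at both stages, with a summed scaled signal of 0.157 to 0.239 at E13 and 0.0969 to 0.264 at E16. On the slides, row 2 held the E13 arrays and row 1 the E16 arrays, and the effects of row and of stage cannot be told apart.

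miR-7a was detected on 7 of the 8 arrays, and its scaled signal was lower on every E16 array. Its unscaled processed signals were 34.0, 71.4, 91.9 and 70.3 on E13 replicates 1 to 4, and 43.3, 40.8, 18.9 and 5.08 on E16 replicates 1 to 4. Every spot used was well above background on the E13 arrays and on E16 replicates 1 to 3, and no spot was on E16 replicate 4. Before scaling the stages overlapped, since E13 replicate 1 was below E16 replicates 1 and 2. After scaling the log2 values were -2.26, -2.15, -2.42 and -2.06 at E13 and -3.81, -4.20, -3.90 and -4.42 at E16. All E16 arrays then lay below all E13 arrays. The means were -2.22 ± 0.15 at E13 and -4.08 ± 0.28 at E16 (SD, n = 4 each), a log2 difference of -1.86 (SE 0.18), or 3.63-fold higher at E13. The E16 mean, its SD and the difference include replicate 4 at -4.42, a value not well above background that is better taken as a bound. Without E16 replicate 4 the difference was -1.75, or 3.36-fold. A block for the slide gave -1.98, and within slide 2, which held 2 arrays of each stage, it was -1.85. Within slide 3, where E16 replicate 4 was the single E16 array, it was -2.18. In RNA of a whole sorted sample, fewer cells that hold a miRNA and less of it per cell cannot be told apart.

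miR-137 was dim at both stages, and its stages were apart in scaled values alone, where E16 replicates 1 to 3 can be read. The unscaled signals were 11.7, 17.4, 25.3 and 19.8 on the E13 arrays and 24.1, 23.2, 11.4 and 0.25 on the E16 arrays. E16 replicates 1 and 2 were brighter than every E13 array but replicate 3. Of the 10 spots on E13 replicate 1, 6 were well above background, as were 6 of the 7 used on E16 replicate 3 and none on E16 replicate 4. The scaled log2 values were -3.80, -4.18, -4.28 and -3.89 at E13 and -4.66, -5.01 and -4.62 on E16 replicates 1 to 3, with replicate 4 at the floor. The values of E16 replicates 1 to 3 lay below the E13 values, the highest of them at -4.62 against a lowest E13 value of -4.28. On E16 replicate 4 the dimmest signal counted as well above background was 9.44. The scaled E13 signals of miR-137 would also have stayed below that limit, so the order of this array is not read. The mean at E13 was -4.04 ± 0.23 (SD, n = 4) and the log2 difference -1.02 (SE 0.30), or 2.03-fold higher at E13, a size that includes the array at the floor. Without that array it was -0.72, or 1.65-fold. The slide block gave -1.25, the arrays of slide 2 alone -0.83 and those of slide 3 alone -1.88. The single E16 array of slide 3 was replicate 4, so the last value rests on the floor and is not read as a size.

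By the share of its spots well above background, miR-153 was detected on every E13 array and on none at E16. The scanner's own call per miRNA also marked it as detected on E16 replicate 1, at a total signal of 4.96. Its unscaled signals were 16.3, 21.3, 30.9 and 25.2 at E13, where every spot used was well above background, and 7.66, 5.74, 3.01 and -1.12 at E16. At E16, 1 of the 8 spots used on replicate 1 was well above background and none on the other arrays. On E16 replicate 4 the dimmest signal counted as well above background was 9.44. Most of the scaled E13 signals of miR-153 would have stayed below that limit, so its absence on this array is not read. The stages did not overlap even before scaling, since the brightest E16 array was below the dimmest E13 array. The scaled log2 values at E13 were -3.32, -3.89, -3.99 and -3.54, with a mean of -3.69 ± 0.31 (SD, n = 4), and all E16 values were at the floor. E16 values are therefore bounds, and under this scaling and with the longer probe miR-153 was at least 2.68-fold lower at E16. This bound sets the E13 mean against, per E16 array, whichever was highest among the floor, the dimmest scaled signal well above background and the signal of miR-153 itself. It includes E16 replicate 4, whose limit lay above the E13 mean. It does not carry over to other settings. The difference was 2.20-fold with the mean of both probes and 1.34-fold with normexp background correction and quantile normalization. Neither is a separate estimate of the fall. The 19-base probe was at the floor on every array, so the mean of both probes had to be smaller. Normexp added an offset of 50, above every miR-153 signal, which draws log2 differences toward 0.

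In the limma fit over all 153 miRNAs tested, 26.1% were lower at E16 at an adjusted p under 0.05, 7.19% were higher and 33.3% were either. The 3 members were among those lower, which is no test of them. Values at the floor entered this fit as if measured. With detection on all 8 arrays required, 10 of 75 miRNAs were lower and 9 higher. In the deposited values, 11 of 86 were lower and 13 higher. The larger share of falls was thus not seen in these sets, which do not hold the 3 members. With values at the floor counted as if measured, all E16 values lay below all E13 values in 30.7% of the 153, the 3 members among them. All E16 values lay above all E13 values in 7.84%. Since these are the values that chose the members, nothing is read from the comparison. The median log2 difference over all 153 was -0.40 and moved with the scaling, from 0.42 with the percentile taken over all mouse probes to -0.09 with quantile normalization. The percentile over all mouse probes was an unscaled signal of 0.486 to 4.36. On every array it lay below the lowest signal counted as well above background. Relative to the median of the same setting, miR-7a was at -1.46 as reported and ranged from -2.19 (total signal) to -0.61 (normexp) over the 20 other settings. miR-137 was at -0.63 and ranged from -1.12 (slide 3 alone) to -0.12 (normexp), and miR-153 ranged from -2.96 (total signal) to -0.38 (normexp). Spots agreed closely on the arrays where a member was detected. The coefficient of variation over the spots of a probe had a median of 7.89% for miR-7a (7 arrays), 15.9% for miR-137 (7 arrays) and 8.70% for miR-153 (4 arrays).

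**Figure D1:**
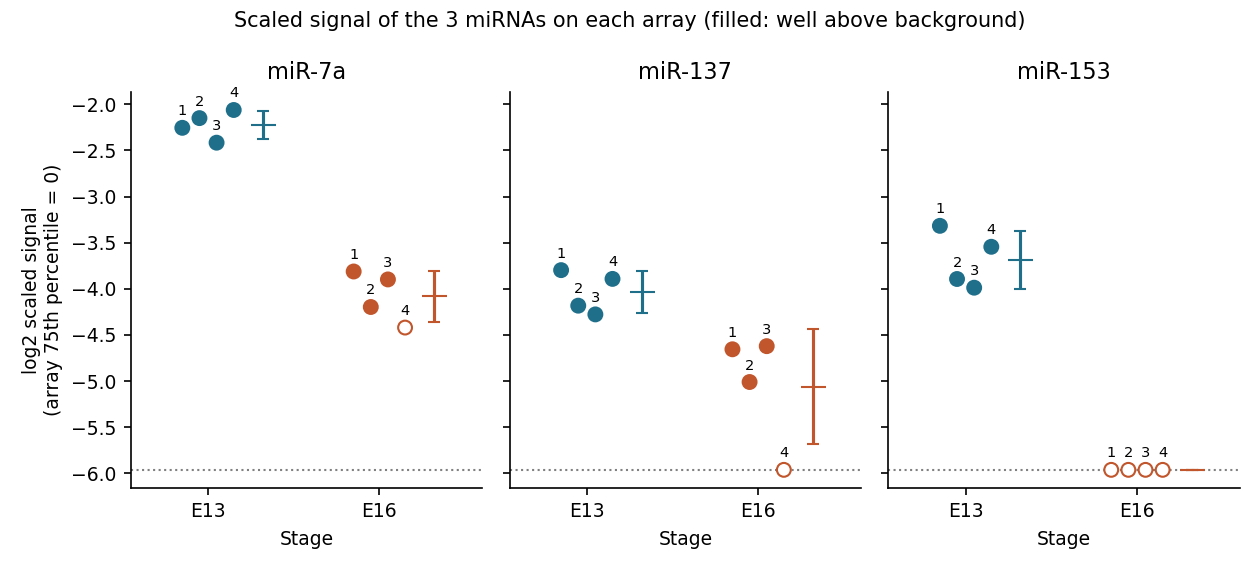
Scaled log2 signal of miR-7a, miR-137 and miR-153 by stage, 1 point per array with its replicate number, filled where the probe was well above background, with the mean and SD of 4 arrays beside the points and the floor of -5.96 as a dotted line. The E13 points of miR-7a lie between -2.42 and -2.06 and its E16 points between -4.42 and -3.81, and all E16 points of miR-153 lie on the floor.

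The 2 probes of miR-137 gave similar signals, and those of miR-7a and miR-153 did not. For miR-137 the 19-base probe gave 9.07 to 20.4 at E13 and -0.31 to 20.0 at E16, close below the 20-base probe, and its log2 difference between stages was -0.92 against -1.02. For miR-7a the 21-base probe gave 4.47 to 10.04 at E13 and 1.48 to 5.998 at E16, and it was well above background on 1 array, E13 replicate 3. At E13 the longer probe of miR-7a exceeded the shorter by 3.18 on the log2 scale. For miR-153 the 19-base probe gave -1.19 to -0.10 at E13 and -2.01 to -0.25 at E16, and none of its spots was well above background on any array. The miR-153 signal thus rested on 1 probe.

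Such gaps were seen elsewhere on the array. Of 330 mouse miRNAs read by a pair of probes where one is the other plus 1 base, 103 had the longer probe well above background on all 4 E13 arrays. The shorter probe was also above background on all 4 in 65 of these and on none in 9, miR-153 among them. The median gap over the 103 was 1.67 on the log2 scale. The gap of miR-7a ranked 6 of 103 from the largest, and that of miR-137, at 0.38, ranked 99.

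**Figure D2:**
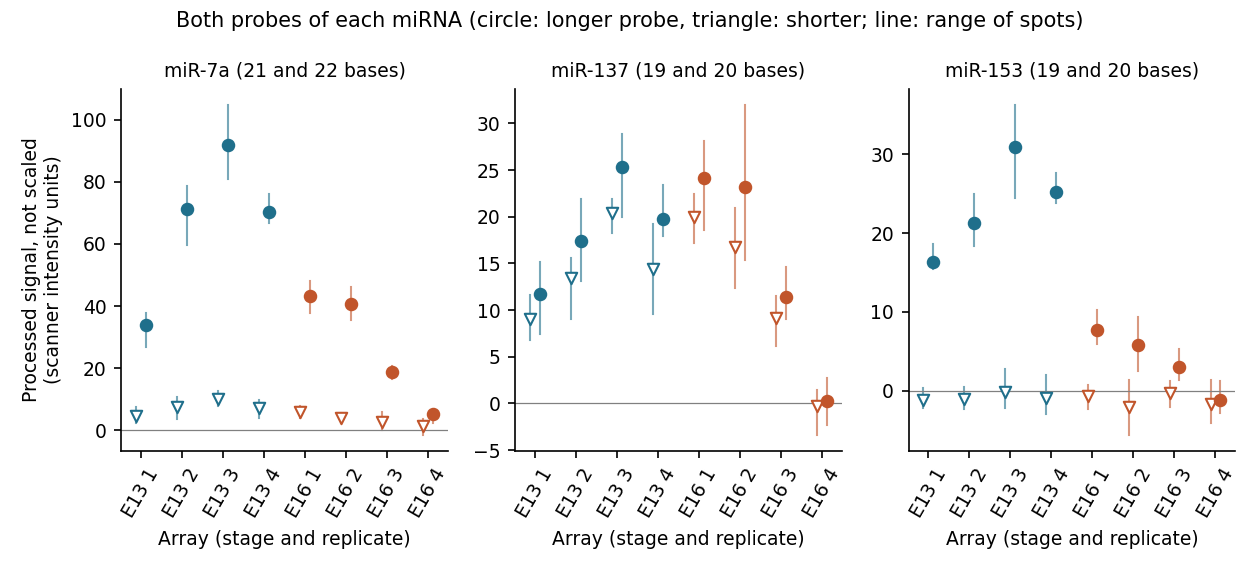
Unscaled processed signal (scanner intensity units) of both probes of each member on the 8 arrays, circles for the longer and triangles for the shorter probe, with lines from the lowest to the highest spot used. The shorter probe of miR-153 stays near 0 on every array, whereas the probes of miR-137 run close together.

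Ratios between members on the same array do not depend on the scaling between arrays. The value of such a ratio mixes the brightness of probes and has no meaning alone, and its change between stages is what can be read. The ratio of miR-7a to miR-137 was 2.91, 4.09, 3.63 and 3.56 on the E13 arrays and 1.79, 1.76 and 1.65 on E16 replicates 1 to 3. Those E16 values lay in a narrow band below all E13 values. The mean log2 ratio fell by 1.02, from 1.82 ± 0.20 (SD, n = 4) to 0.79 ± 0.06 (SD, n = 3), a 2.03-fold change. On E16 replicate 4 neither miRNA was above background, and the ratio of 20.6 there is not read.

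The ratio of miR-153 to miR-137 was also lower at E16. It was 1.39, 1.22, 1.22 and 1.27 on the E13 arrays and 0.317, 0.247 and 0.263 on E16 replicates 1 to 3, where miR-153 itself was not well above background. Against miR-7a, the ratio of miR-153 was 0.299 to 0.479 at E13 and 0.141 to 0.177 on the same 3 E16 arrays. Since these E16 ratios rest on miR-153 signals not well above background, no fold is given for either, and the order of miR-7a and miR-153 by size of fall is not read. Against miR-9, a miRNA of neural progenitors and neurons whose own difference was -0.09, miR-7a changed by -1.77 on the log2 scale over all 8 arrays. Without E16 replicate 4 it changed by -1.80 and miR-137 by -0.77. These changes share the values that chose the members and were not tested.

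**Figure D3:**
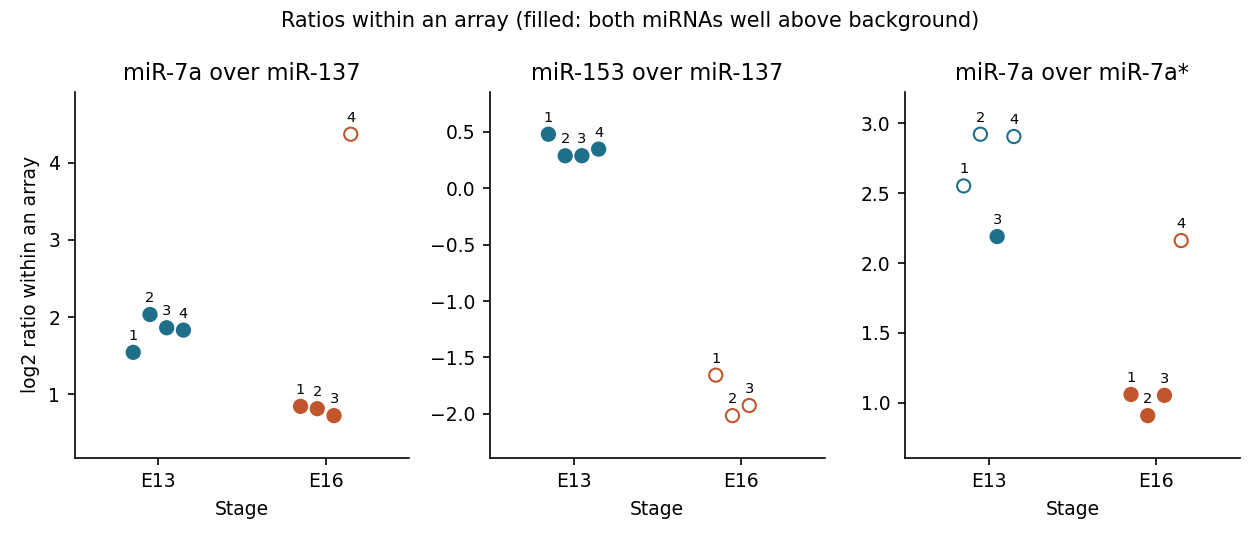
Log2 ratio within an array of miR-7a to miR-137, miR-153 to miR-137 and miR-7a to miR-7a*, 1 point per array with its replicate number, filled where both miRNAs were well above background. E16 replicates 1 to 3 lie below all E13 arrays in each panel. E16 replicate 4 lies above all E13 arrays for miR-7a to miR-137. For miR-7a to miR-7a* it lies at 2.16, beside E13 replicate 3 at 2.19.

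The opposite arm of Mir7-1, miR-7a*, was not used to choose the members. Its unscaled signals were 5.80, 9.42, 20.1 and 9.40 on the E13 arrays and 20.8, 21.7, 9.10 and 1.14 on the E16 arrays. It was well above background on E13 replicate 3 alone of that stage and on E16 replicates 1 to 3. The scanner's own call per miRNA also marked it as detected on E13 replicates 2 and 4. The scaled log2 means were -4.86 ± 0.20 at E13 and -5.22 ± 0.50 at E16 (SD, n = 4 each, with E16 replicate 4 at the floor), and the stages overlapped. The log2 difference of -0.36 (SE 0.25) did not pass the test (limma adjusted p = 0.285), and it was 0.30 when all mouse probes set the percentile and 0.22 after quantile normalization.

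The ratio of the arms was lower on E16 replicates 1 to 3 than on the E13 arrays. The ratio of miR-7a to miR-7a* was 5.86, 7.57, 4.56 and 7.49 on the E13 arrays and 2.09, 1.88 and 2.08 on E16 replicates 1 to 3. On E13 replicate 3, the single E13 array where both arms were above background, it was 4.56, above the 3 E16 values. On E16 replicate 4, with both arms near background, it was 4.47. No mean change is given, since miR-7a* was not well above background on the other 3 E13 arrays, and the ratio holds the miR-7a values that chose it. miR-7a also comes from Mir7-2, whose opposite arm the array does not read without mismatches.

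miR-7b, which shares the seed of miR-7a, was above background on no array. Its longer probe gave 2.51 to 6.18 at E13 and 0.76 to 5.64 at E16. The scanner's own call per miRNA marked it as detected on E13 replicate 3, at a total signal of 4.09. The 22-base miR-7a probe has 1 mismatch to miR-7b. No probe for the other arm of miR-137 or miR-153 was on the array under their names.

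The wider list of neuron-associated miRNAs held 18 miRNAs of the array, 15 of them outside the 3 members. Of these 15, 8 were tested, of which 1 was lower, 0 were higher and 7 did not pass the test (limma, adjusted p under 0.05, with the same counts of 1 and 0 at an unadjusted p under 0.05). The 8 include miR-7a*, the opposite arm of the Mir7-1 hairpin of miR-7a, and both arms of miR-124 and of miR-9. They are therefore not 8 separate hairpins. Over all 153, 26.1% were lower and 7.19% higher, with values at the floor counted as if measured. When all mouse probes set the percentile, 3 of the 8 were higher and 0 lower, and within slide 3, with its single E16 array, 7 were lower. The median log2 difference of the 8 was -0.08, beside -0.40 for all 153 miRNAs tested.

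The miRNA that fell was miR-124*, the other arm of miR-124. Its scaled log2 mean was -2.66 ± 0.24 at E13 and -3.52 ± 0.23 at E16 (SD, n = 4 each), a difference of -0.86 (SE 0.18, limma adjusted p = 0.00544), and the stages did not overlap. It no longer passed when all mouse probes set the percentile (-0.04), with the total signal per miRNA (-0.87), in the deposited value table (-0.14), with outlier spots kept (-0.59) and within slide 2 (-0.69). miR-124, the most abundant miRNA of mature neurons, had a difference of -0.07 (SE 0.41) and miR-128, another miRNA of neurons, of -0.15 (SE 0.36). miR-129-3p was at 0.11, miR-218, known from motor neurons, at 0.17, miR-9 at -0.09 and miR-9* at 0.33.

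miR-124, miR-128, miR-9 and miR-9* changed sign under other scalings. When all mouse probes set the percentile, miR-124 was at 0.75, miR-128 at 0.67 and miR-9 at 0.73, and miR-9* was at -0.11 with quantile normalization. The percentile over all mouse probes lay below the lowest signal well above background on every array. E16 replicate 4 was the lowest E16 array for miR-124 (-1.83), miR-128 (-3.52), miR-9 (1.78) and miR-9* (2.90). Of the 7 further list members, miR-129-5p was above background on 1 array of each stage. miR-132, miR-134, miR-138, miR-138*, miR-212 and miR-7b were above background on none.

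**Figure D4:**
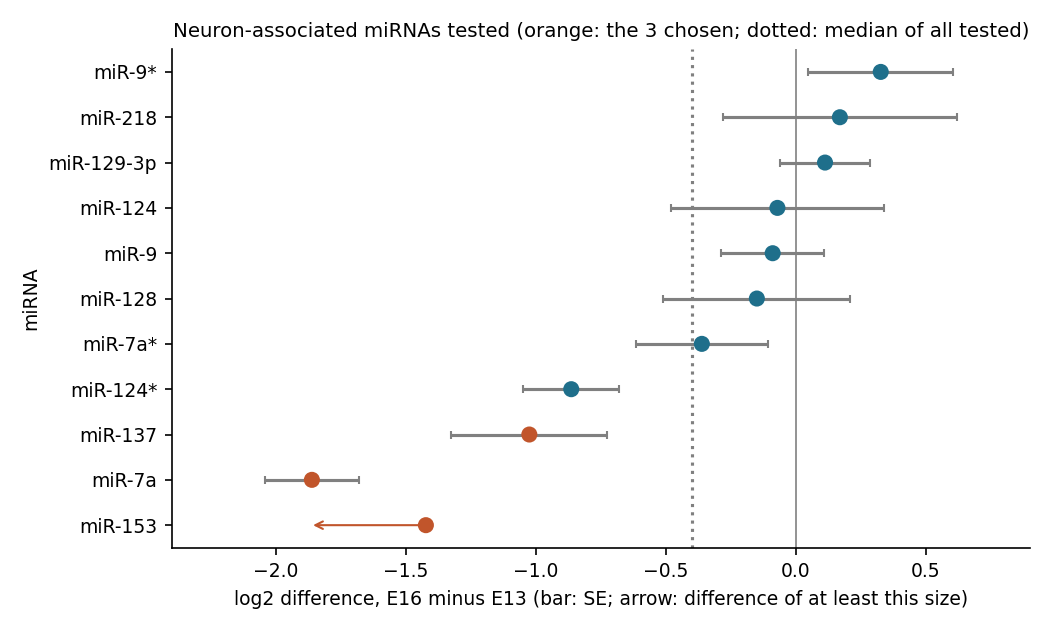
Log2 difference (E16 minus E13) of the 11 neuron-associated miRNAs tested, with SE bars, the 3 chosen miRNAs in orange and the median of all tested miRNAs (-0.40) as a dotted line. miR-153 is drawn at its bound with an arrow toward larger falls, and the 8 other miRNAs lie between -0.86 and 0.33.

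The miRNAs with the most similar array profiles were found from the root mean square (RMS) gap between log2 values centred on each miRNA's mean over the 8 arrays. Among the 152 other tested miRNAs, the closest to miR-7a were miR-431 (0.24), miR-495 (0.25), miR-377 (0.26), miR-541 (0.29) and miR-370 (0.29), where the median gap was 0.84. The closest to miR-153 were miR-431 (0.19), miR-541 (0.22), miR-410 (0.28), miR-495 (0.28) and miR-370 (0.29), with a median of 1.03. All of these are miRNAs of the imprinted Dlk1-Dio3 region on chromosome 12, and 4 of the 5 were the same for both members. miR-431, miR-541 and miR-370 were detected on each of the 4 E13 arrays but on none at E16, so that their E16 values are bounds. For miR-495 and miR-377, 3 of the 4 E16 values were at the floor, and for miR-410 it was 1. The gaps to these miRNAs thus rest in part on values at the floor.

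miR-137 had other neighbours. They were miR-335-5p (0.18), miR-18a (0.24), miR-210 (0.28), miR-124* (0.31) and miR-324-5p (0.32), with a median of 0.61 over the 152. All 5 were detected on at least 3 arrays of each stage. Between the members, the gap was 0.32 for miR-7a and miR-153, which ranked 10 among the neighbours of miR-7a, 0.49 for miR-7a and miR-137 (rank 20) and 0.74 for miR-137 and miR-153 (rank 109 among the neighbours of miR-137). Since the stage step is part of each profile, this likeness repeats the choice of members and is a description.

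The size of each difference varied with the setting. Over the 20 other settings miR-7a ranged from -2.55 to -0.64, miR-137 from -1.88 to -0.16 and miR-153 from -3.32 to -0.42, most of the last resting on E16 values at a floor. The smallest values came from normexp with an offset of 50 and quantile normalization together. That offset was above every processed signal of miR-137 and miR-153, and adding it draws log2 differences toward 0. The largest values of miR-7a and miR-153 came from the scanner's total signal per miRNA, which lists undetected miRNAs at 0.1. Leaving out 1 array at a time gave -1.95 to -1.75 for miR-7a, -1.17 to -0.72 for miR-137 and -2.38 to -2.15 for miR-153, where leaving out an E16 array could not move the value since all were at the floor. The largest value of miR-137 came from slide 3 alone, on whose single E16 array miR-137 was at the floor. The deposited value table does not hold the 3 members.

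**Figure D5:**
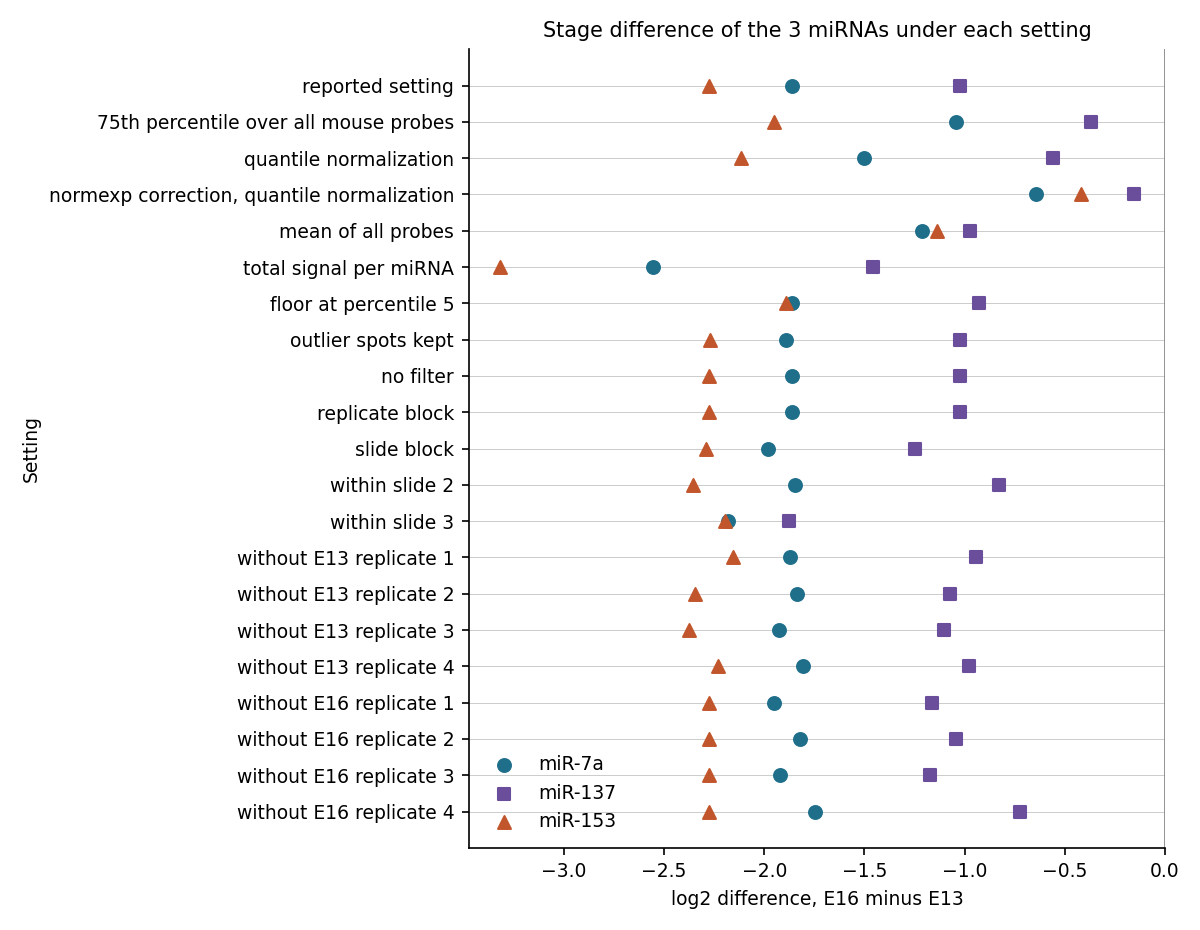
Log2 difference (E16 minus E13) of miR-7a, miR-137 and miR-153 under the reported setting and 20 others, 1 row per setting. Most points of miR-153 rest on E16 values at a floor, and under the normexp correction all 3 lie between -0.64 and -0.16.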

How the data were processed

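Per the labels' protocols, total RNA of sorted cells carried a cyanine-3 label and was put on Agilent miRNA arrays, 1 array per sample. Per the file headers, the deposited scanner output comes from Agilent's Feature Extraction software, version 10.7.3.1 (the submitters' processing notes give the same one), and gives spot intensities not scaled between arrays, with other columns holding flags of 0 or 1. The deposited value table holds log2 values of 86 mouse miRNAs, ranked within each array as the processed signals were; the sources used here do not give its normalization.

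Control spots and outlier spots (1.91% to 3.87%) were left out, and no spot was saturated. The spots of a probe were averaged, and a probe counted as well above background when at least a share of 0.5 of its used spots did. Signals were divided by the array's 75th percentile, floored at percentile 1 of scaled signals well above background, and put on the log2 scale. The brightest probe stood for its miRNA. The 153 miRNAs detected by 1 of their probes on 4 or more of the 8 arrays were compared with limma 3.58.1 in R 4.3.3 (Benjamini-Hochberg, threshold 0.05, two-sided), tested on simulated data first. A bound takes, per dim array, whichever is highest among the miRNA's own signal, the floor and the dimmest signal well above background. Named were the 3 members, their seed and arm relatives, the neuron-associated list and the 5 nearest profiles per member. The members and lists were chosen with earlier results of these data known. The number of arrays limits the precision. Alternatives changed the scaling, background correction, probe summary, floor, filter, outlier spots, blocks and arrays used.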

Additional observations from a re-analysis of the deposited data

Results flagged for a closer look

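Among the miRNAs named, 44 groups of 4 arrays were looked at for an array far from the rest, and chance marks about 1 in 20 such groups. miR-335-5p, the nearest profile to miR-137, was at -3.01 on E13 replicate 1, against -3.34 to -3.29 on the other E13 arrays. miR-9 was at 1.94 on E13 replicate 2, against 2.35 to 2.44. For miR-495 and miR-377, near miR-7a in profile, E16 replicate 1 was at -5.87 and -5.89 with the other E16 arrays at the floor of -5.96, where values have no order. No array of miR-7a, miR-137 or miR-153 stood apart by this measure. It used floored values, and E16 replicate 4 of miR-137 and all E16 arrays of miR-153 were at the floor. For these the measure cannot decide.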

How the results depend on the processing

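Signals of miR-137 and miR-153 lay close to the lowest signal counted as well above background (7.43 to 11.7), which limits what can be said of their size. The differences reported for miR-7a, miR-137 and miR-153 were -1.86, -1.02 and -2.28. In the same order, the percentile over all mouse probes gave -1.04, -0.37 and -1.95, and normexp -0.64, -0.16 and -0.42. Quantile normalization gave -1.50, -0.56 and -2.12. The mean of both probes gave -1.21 for miR-7a and -1.14 for miR-153, and total signal -2.55 and -3.32 for the same pair. The shorter probe of miR-153 was at the floor on every array, so the mean of its probes had to be smaller. The floor at percentile 5 gave -1.89 for miR-153, and slide 3 alone -2.18 for miR-7a and -1.88 for miR-137. On the single E16 array of slide 3, miR-137 was at the floor. Of all miRNAs tested, 11 were higher and 40 lower at E16. The percentile over all probes gave 47 and 16, with 3 other neuron-associated miRNAs higher and 0 lower. That percentile was a signal of 0.486 to 4.36, on every array below the lowest signal well above background. Those higher were 20 with quantile normalization and 19 with normexp. They were 9 of 75 with detection on all 8 arrays required and 13 of 86 in the deposited table. Those lower were 19 with total signal, 11 of 86 in the deposited table, 10 with detection on all 8 arrays required, 25 within slide 2 and 88 within slide 3, where 7 other neuron-associated miRNAs were lower. The count of other neuron-associated miRNAs lower was 0 with total signal, outlier spots kept and slide 2. It was also 0 of 5 in the deposited table and 0 of 4 with detection on all 8 arrays, a set without miR-124*. Leaving out 1 array gave 9 to 17 higher, the most without E16 replicate 4, and 29 to 54 lower. With the replicate number as a block the members stayed at -1.86, -1.02 and -2.28, with 10 higher and 35 lower. Deviations of same-numbered arrays correlated at -0.15 to 0.27, so the numbers do not show a pairing. Signs turned for miR-124 (0.75 over all probes, 0.0091 quantile, 0.028 normexp, 0.060 total signal, 0.054 in slide 2), miR-128 (0.67, 0.024 and 0.063 in the first 3 and 0.16 in slide 2), miR-7a* (0.30, 0.22 and 0.050), miR-9 (0.73 over all probes, 0.21 in slide 2), miR-9* (-0.11 quantile and normexp, -0.50 in slide 3) and miR-218 (-0.23 with the slide block, -1.41 in slide 3). Leaving out 1 array gave -0.43 to 0.30 for miR-124, -0.42 to 0.21 for miR-128, -0.20 to 0.05 for miR-9 and -0.20 to 0.60 for miR-218, with the sign of the first 3 turned without E16 replicate 4 (miR-124 0.30, miR-128 0.21, miR-9 0.048), of miR-124 without E13 replicate 3 (0.0088) and of miR-218 without E16 replicate 1 (-0.20). The causes were not tested.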
